A study of Mus musculus with 6 samples.

Results

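*Lcn2*, *Steap4*, *S1pr3*, *Aspg*, *Hspb1* and *Cd44* are genes of the pan-reactive signature of astrocytes, a set of transcripts that rises in reactive astrocytes after different kinds of injury. The 6 genes were taken by their symbols from the gene column of the deposited tables, and all 6 were found among 24421 genes. RNA was measured in hippocampal astrocytes of adult *Siglech* dtr/dtr mice on a C57BL/6 background, in 3 PBS libraries and 3 DT libraries. Mice of both groups carried the diphtheria toxin receptor at *Siglech*, a gene that among mononuclear cells of the brain is used almost only by microglia, and were sampled 2 days after intraperitoneal PBS or diphtheria toxin (DT) at 50 µg/kg. Each library came from a pool of 2 mice, and the pools came from independent experiments. Because all libraries are from *Siglech* dtr/dtr mice, an effect of the toxin itself and an effect of the loss of microglia cannot be told apart.

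Reactive astrocytes are astrocytes that have responded to injury, infection or cell death with a change of shape and of gene expression. The pan-reactive genes were named in contrast to A1-type and A2-type genes, which are thought to depend more on the kind of insult. Their products act in different places. *Lcn2* encodes a secreted carrier of iron-binding siderophores, *Steap4* a membrane reductase of iron and copper, *S1pr3* a receptor of the lipid sphingosine 1-phosphate, *Aspg* an asparaginase, *Hspb1* a small heat shock protein, and *Cd44* a receptor of hyaluronan.

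The libraries held 21704891 to 32933975 reads assigned to genes, and 1 read corresponded to 0.0301 to 0.0460 CPM (reads scaled to library size). The astrocyte label was borne out by its markers, since 15 markers summed to between 36672 and 38959 TPM in each library. Among them were the glutamate transporters *Slc1a2* and *Slc1a3*, and *Atp1b2*, which carries the antigen used for sorting. With limma 0 of the 15 were called, and 1 was higher and 1 lower at an unadjusted p-value under 0.05. The count test DESeq2 called *Atp1b2* higher and *Glul* lower. *Aqp4* was at 736, 432 and 378 TPM after PBS and at 532, 479 and 1666 TPM after DT. Its DT replicates 1 and 2 lay within the PBS range, and DT replicate 3 lay above it. DT and PBS libraries were compared with limma, two-sided, after a transformation to log2(CPM + 0.1), for genes whose CPM averaged 0.5 or more, and p-values were adjusted over all 15137 genes tested with the Benjamini-Hochberg method. All 6 genes passed this filter, and all 6 would have passed it on their PBS libraries alone. For genes with few reads, a fold change on this scale depends on the added 0.1. With 0.5 or 1 added instead, it was smaller in size for each of the 6 genes. Levels are given in TPM, transcripts scaled to library size and to transcript length, so that they can be compared between genes.

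Of the 6 genes, 2 rose after DT at an adjusted p-value under 0.05, *Aspg* and *Cd44*, and 0 fell. Among all genes tested, 0.555% were called higher and 0.159% lower. With limma, 4 of the 6 had an unadjusted p-value under 0.05, all of them higher after DT, and 0 were lower at that level, where 5.91% of all genes tested were higher and 4.51% lower, 10.4% in all. On the recovered reads, edgeR's quasi-likelihood test called the same 2 genes (0.575% of all genes higher, 0.159% lower), DESeq2 called 3 (1.5% higher, 0.648% lower) and edgeR's exact test called 4 (1.26% higher, 0.476% lower), and each called 0 of the 6 lower. *Steap4* and *S1pr3* lay higher in every DT library without passing the threshold, *Lcn2* varied more between libraries of 1 group than between the group means, and *Hspb1* had a lower mean after DT. The median log2 fold change of the 6 genes was 1.48, beside a median of -0.00524 over all genes tested.

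For the 6 genes, RefSeq gives 1 start each in the table used here (assembly GRCm38.p6), and the 250 bases before that start were searched on both strands for 7 short motifs. These were TTCNNNGAA, the palindrome bound by STAT factors, TGANTCA for AP-1, TTGCNNAA for C/EBP factors, GAANNTTC for the heat shock element, TATAAA for the TATA box, GGGCGG for the GC box, and the NF-kappa B motif. The windows of *Aspg* and *Cd44* are shown because these genes rose, and that of *Steap4* because it holds the most kinds of motif. That of *Hspb1* is shown because its mean, alone of the 6, was lower after DT, a difference that did not pass the threshold. Matches are in capitals, and each is written 5′ to 3′ on the strand of the gene.
Aspg, chr12:112106433-112106682, plus strand: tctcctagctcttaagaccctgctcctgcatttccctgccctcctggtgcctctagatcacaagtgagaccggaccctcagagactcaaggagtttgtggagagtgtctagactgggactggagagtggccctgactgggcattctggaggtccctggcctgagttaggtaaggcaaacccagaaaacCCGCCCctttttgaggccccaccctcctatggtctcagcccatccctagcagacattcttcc
Cd44, chr2:102901666-102901915, minus strand: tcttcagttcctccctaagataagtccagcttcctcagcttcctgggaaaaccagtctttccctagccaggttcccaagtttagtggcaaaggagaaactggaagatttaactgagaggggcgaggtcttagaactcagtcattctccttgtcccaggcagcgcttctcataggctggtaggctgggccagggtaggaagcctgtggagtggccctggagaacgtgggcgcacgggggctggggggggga
Steap4, chr5:7960222-7960471, plus strand: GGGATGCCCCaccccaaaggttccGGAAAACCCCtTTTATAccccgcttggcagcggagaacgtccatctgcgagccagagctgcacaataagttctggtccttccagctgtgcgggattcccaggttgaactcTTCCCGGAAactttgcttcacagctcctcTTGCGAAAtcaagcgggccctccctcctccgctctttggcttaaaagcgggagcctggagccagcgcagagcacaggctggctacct
Hspb1, chr5:135887669-135887918, plus strand: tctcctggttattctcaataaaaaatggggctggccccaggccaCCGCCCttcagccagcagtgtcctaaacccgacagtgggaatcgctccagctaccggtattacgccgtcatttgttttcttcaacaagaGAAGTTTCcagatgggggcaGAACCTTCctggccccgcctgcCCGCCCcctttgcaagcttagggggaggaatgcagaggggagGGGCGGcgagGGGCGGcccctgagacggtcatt

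The window of *Aspg* held a GC box, which 32.7% of 32851 promoter windows of the same length hold, and that of *Cd44* held none of the 7 motifs. In the *Steap4* window were a STAT palindrome from base 116 to base 108 before the start, which 7.02% of all windows hold, a C/EBP motif (9.56% of windows), a TATA box on the other strand (12.4%) and 2 NF-kappa B motifs (3.90%). Those of *Hspb1* were 2 heat shock elements, from base 117 to base 110 and from base 97 to base 90 before the start, and 4 GC boxes. A heat shock element is held by 6.69% of all windows. *Lcn2*, whose window is not shown, held a C/EBP motif and a GC box, and *S1pr3* a GC box. The AP-1 motif, which 6.75% of windows hold, was in 0 of the 6 windows. A match is only a match of letters, and binding was not measured.

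*Aspg* lies on the plus strand of chromosome 12 of mm10 from 112106679 to 112127559, and its 3 coding transcripts in GENCODE M21 hold between 5 and 15 exons. Its product hydrolyses asparagine to aspartate and ammonia. Its level was 5.60, 7.58 and 7.35 TPM in the PBS libraries and 37.3, 34.7 and 28.9 TPM in the DT libraries. All 3 DT libraries lay far above all PBS libraries, and the lowest DT value was that of replicate 3. The mean rose 4.92-fold, with 6.84 ± 1.08 TPM after PBS and 33.6 ± 4.30 TPM after DT (SD, n = 3). On the scale of the test the log2 fold change was 2.27 with an SE of 0.15 and a 95% interval from 1.92 to 2.61 (limma, adjusted p = 0.000379), and by p-value *Aspg* stood at place 8 of the genes tested. It was read 116 to 231 times in the PBS and 610 to 973 times in the DT libraries. In the order of levels among all genes tested, it moved from percentile 24.1 after PBS to percentile 62.1 after DT.

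*Cd44* spans bases 102811141 to 102901665 of chromosome 2 on the minus strand, with 8 coding transcripts of 9 to 19 exons. The protein spans the cell membrane, binds hyaluronan and osteopontin outside the cell, and is linked to the actin cortex inside it. The PBS libraries held 5.99, 8.35 and 8.94 TPM and the DT libraries 26.3, 25.3 and 27.3 TPM. The 3 DT values lay close together and all above the PBS values. The mean rose 3.39-fold, with 7.76 ± 1.56 TPM after PBS and 26.3 ± 1.003 TPM after DT (SD, n = 3), and the log2 fold change was 1.75 with an SE of 0.14 and a 95% interval from 1.43 to 2.06 (limma, adjusted p = 0.000881). This placed it at place 14 by p-value, from 256 to 526 reads in the PBS and 1161 to 1461 in the DT libraries. The tables give a single value per gene, so the splice forms of *Cd44* were not told apart here. Its TPM per CPM, relative to the median gene of each library, lay between 0.505 and 0.520, so the length that the quantification used for it was nearly the same in each library.

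**Figure D1:**
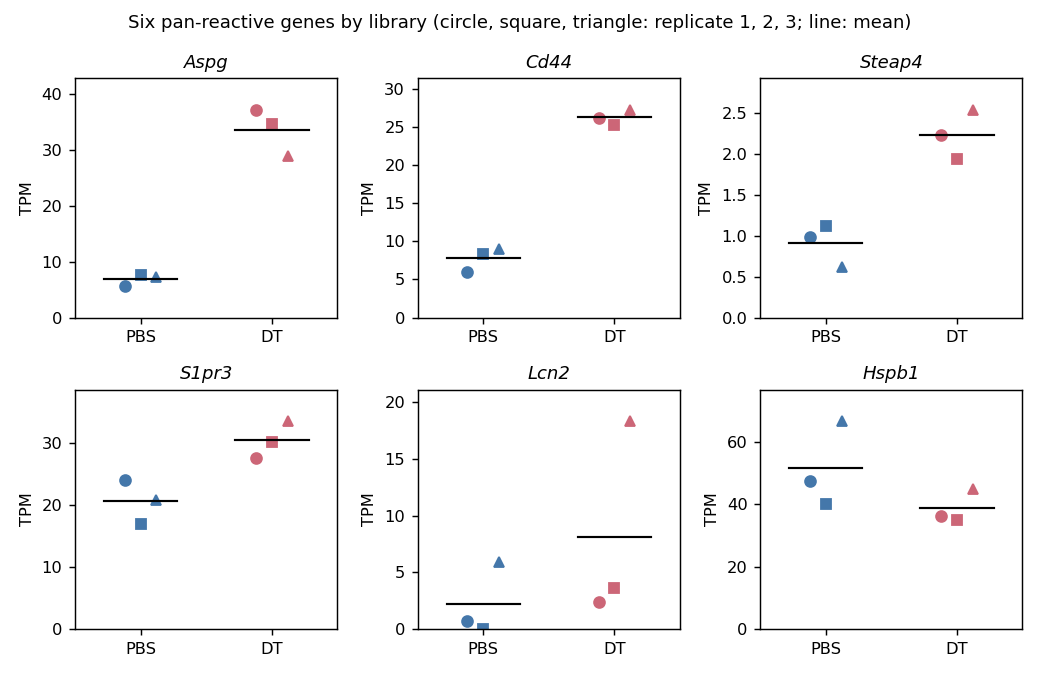
TPM (y axis, from 0) of the 6 genes in the 3 PBS and 3 DT libraries (x axis), with the marker shape giving the replicate number and the line the mean of a group. *Aspg*, *Cd44*, *Steap4* and *S1pr3* were higher in each DT library than in any PBS library, while *Lcn2* and *Hspb1* overlapped between the groups and had their highest value of each group in replicate 3.

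*Steap4* lies on the plus strand of chromosome 5 from 7960457 to 7982213 and has 1 annotated transcript of 5 exons. Its mean TPM was the lowest of the 6 genes in both groups, although *Lcn2* lay below it in PBS replicates 1 and 2. The PBS libraries held 0.988, 1.12 and 0.621 TPM and the DT libraries 2.22, 1.93 and 2.54 TPM, without overlap. The means were 0.910 ± 0.26 and 2.23 ± 0.30 TPM (SD, n = 3), a 2.45-fold difference. Only 15 to 40 reads per PBS library and 56 to 63 reads per DT library stood behind these values. The log2 fold change was 1.21 (standard error 0.29, 95% interval 0.54 to 1.88), and the gene did not pass the threshold over all genes (adjusted p = 0.174 from limma). With edgeR's exact test it did (adjusted p = 0.0109, within 0.0109 to 0.566 over the alternatives).

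*S1pr3* lies on the plus strand of chromosome 13 from 51408639 to 51422797, with 1 annotated transcript of 2 exons, and *Gm32834* overlaps it on the other strand. The study's mapping used the strand of the reads. The receptor is coupled to G proteins and is best known from blood vessel walls and from glia. The PBS libraries held 23.9, 16.9 and 20.8 TPM and the DT libraries 27.5, 30.1 and 33.5 TPM. The groups did not overlap, but the gap between the highest PBS and the lowest DT library was smaller than the range of the PBS libraries. The means were 20.5 ± 3.53 and 30.3 ± 3.01 TPM (SD, n = 3), a 1.48-fold difference from 692 to 1382 reads per library. The log2 fold change of 0.56 had a 95% interval from 0.24 to 0.87 and an SE of 0.14 (limma, adjusted p = 0.181). It was called higher by DESeq2 at an adjusted p of 0.0123 and by the exact test of edgeR at 0.0409, and the adjusted p-value lay between 0.0123 and 0.519 over the alternatives.

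*Lcn2* spans bases 32384633 to 32388252 of chromosome 2 on the minus strand, in coding transcripts of 6 and 7 exons. Its product, lipocalin 2, is secreted by many cells in acute inflammation, neutrophils and astrocytes among them. The PBS libraries held 0.698, 0 and 5.90 TPM and the DT libraries 2.34, 3.59 and 18.3 TPM. Replicate 3 was the highest library of either group, and PBS replicate 3 lay above DT replicates 1 and 2. The recovered reads were 5, 0 and 38 after PBS and 16, 32 and 121 after DT, and the count of 0 in PBS replicate 2 allows a level of up to 0.0904 CPM (3 reads, counting error only).

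The means of *Lcn2* were 2.20 ± 3.22 and 8.09 ± 8.90 TPM (SD, n = 3), so that each SD was larger than its mean. The log2 fold change of 2.11 had a 95% interval from -0.32 to 4.54 and an SE of 1.07 (limma, adjusted p = 0.537). Without PBS replicate 3 it was 3.22, without PBS replicate 2 it was 1.12, without DT replicate 3 it was 1.28, and with a pseudocount of 1 it was 0.90. With edgeR and DESeq2 it was 1.83 to 1.90. With neither library numbered 3 it was 2.39 (adjusted p = 0.486 from limma, within 0.163 to 0.888 over the alternatives). A change of *Lcn2* was therefore not detectable with these libraries, and neither was its absence.

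*Hspb1* lies on the plus strand of chromosome 5 from 135887919 to 135889563, in coding transcripts of 2 and 3 exons. The protein is a chaperone that binds unfolded proteins and cytoskeletal filaments. It had the highest level of the 6 genes in the PBS libraries, with 47.6, 40.2 and 66.8 TPM, and the DT libraries held 36.4, 35.1 and 45.0 TPM. The groups overlapped, because DT replicate 3 lay above PBS replicate 2. The means were 51.5 ± 13.7 and 38.8 ± 5.38 TPM (SD, n = 3), with a 95% interval of the log2 fold change from -0.84 to 0.05 around -0.39 and an SE of 0.19 (limma, adjusted p = 0.525). When single libraries were left out, it lay between -0.57 without PBS replicate 2 and -0.19 without PBS replicate 3. The upper end of the interval, 0.05, lies below the lower end of the interval of each of *Aspg*, *Cd44*, *Steap4* and *S1pr3*.

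**Figure D2:**
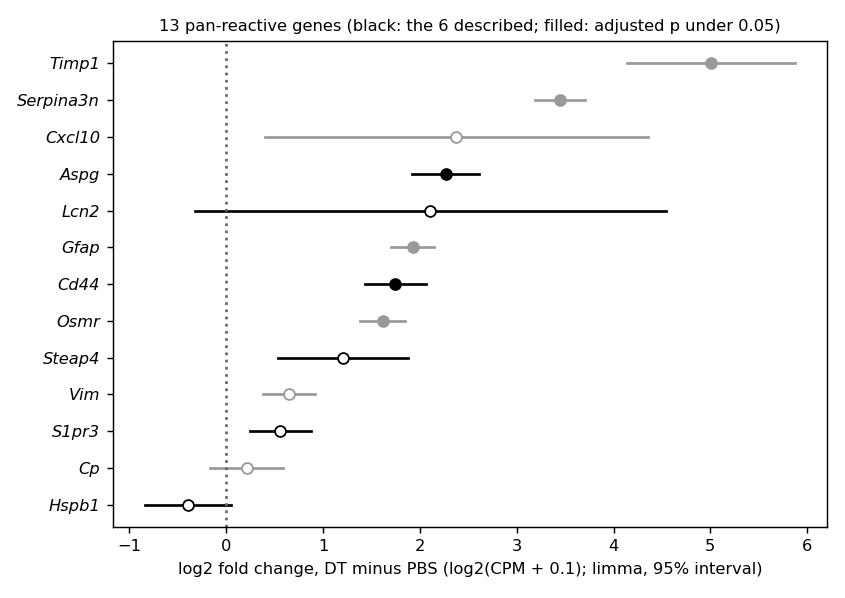
Log2 fold change (x axis, DT minus PBS on the scale of log2(CPM + 0.1)) with the 95% interval of limma for the 13 pan-reactive genes, with the 6 genes described here in black, the others in grey, and filled points for an adjusted p-value under 0.05. *Aspg* (2.27) and *Cd44* (1.75) are filled, the interval of *Lcn2* crosses 0, and *Hspb1* (-0.39) is the only gene left of 0. The value of *Timp1*, which was at 0 in the PBS libraries, depends on the pseudocount.

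In the deposited TPM, 4 of the 6 genes had no overlap between the groups, all of them higher after DT, where 9.5% of all genes tested were higher without overlap and 6.65% were lower. For these 4 genes the exact permutation test of TPM gave p = 0.1, two-sided, the smallest p-value that 3 against 3 libraries allow. It gave p = 0.4 for *Lcn2* and p = 0.2 for *Hspb1* (exact permutation test, n = 3).

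By mean TPM, the order of the levels after PBS was *Hspb1*, *S1pr3*, *Cd44*, *Aspg*, *Lcn2* and *Steap4*. *Hspb1* and *S1pr3* stood apart from each other and from the rest, while *Cd44* and *Aspg* overlapped, as did *Aspg* with *Lcn2* and *Lcn2* with *Steap4*. After DT the order was *Hspb1*, *Aspg*, *S1pr3*, *Cd44*, *Lcn2* and *Steap4*, and the libraries of *Hspb1*, *Aspg* and *S1pr3* overlapped with their neighbours. *Cd44* stood below *S1pr3* and above *Lcn2* in each DT library. *Aspg* gained 26.8 TPM and *Cd44* gained 18.5 TPM, while the mean of *Hspb1* was lower by a difference of -12.7 TPM.

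To see whether the genes changed by different amounts, the log2 ratio of TPM between each pair was compared between the groups. Of the 15 pairs, 8 had ratios that did not overlap between PBS and DT libraries. In an exact permutation test over the libraries their p-value was 0.1, the smallest possible, and 0.188 when adjusted over the 15 pairs. No pair could therefore pass a threshold of 0.05. The 15 pairs share genes and are not independent, and the share of non-overlapping ratios among pairs of other genes was not computed. The log2 ratio of *Aspg* to *Hspb1* was -3.06, -2.39 and -3.17 after PBS and 0.04, -0.01 and -0.64 after DT, a shift of 2.67. *Cd44* and *Hspb1* shifted against each other by a similar size, with a log2 ratio of *Hspb1* to *Cd44* of 2.70 after PBS and 0.55 after DT. *Aspg* and *Cd44* were at a log2 ratio of -0.10, -0.14 and -0.28 after PBS and 0.50, 0.46 and 0.08 after DT, a shift of 0.52 without overlap. The pairs of *Lcn2* with the other genes all overlapped.

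The other genes of the 13-gene signature are given beside the 6. *Timp1*, an inhibitor of matrix proteases, *Osmr*, the receptor of oncostatin M, *Serpina3n*, a serine protease inhibitor, and the intermediate filament gene *Gfap* rose. Thus 4 of these 7 genes were called higher and 0 lower with limma, beside 0.555% and 0.159% of all genes tested. *Timp1* was at 0 in each PBS library and at 11.3, 9.70 and 9.72 TPM after DT, at least 25.6-fold higher against a floor of 3 reads per library. *Osmr* went from 35.1 ± 4.49 to 108 ± 8.42 TPM (SD, n = 3), with a log2 fold change of 1.62, beside 3.45 for *Serpina3n* and 1.93 for *Gfap*. *Vim* (0.65, adjusted p = 0.0616 from limma), *Cxcl10* (2.38, adjusted p = 0.394) and *Cp* (0.21, adjusted p = 0.705) did not pass the threshold. With DESeq2 and edgeR's exact test, *Vim* passed too.

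Each of the 6 genes acts with other gene products, and 69 such partner genes were tested. With limma, 3 were called higher, *Hmox1*, *Hspb6* and *Lyve1*, and 0 lower, beside 0.555% and 0.159% of all genes tested. For lipocalin 2, the receptor *Slc22a17* was at 197 ± 2.87 TPM after PBS and 190 ± 8.05 TPM after DT (SD, n = 3), *Bdh2*, a dehydrogenase linked to the mammalian siderophore, at 19.2 and 17.3 TPM, and the receptor *Lrp2* at 5.06 and 6.51 TPM. Of its 3 tested receptors and partners, 0 were called by limma, edgeR or DESeq2, and 0 had an unadjusted p-value under 0.05. *Mmp9*, whose product forms a complex with lipocalin 2, was under the filter with at most 0.305 TPM in any library, and *Hamp* was listed at 0 in all 6.

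Among the other STEAP family reductases, *Steap1* was at 0.986, 2.06 and 1.34 TPM after PBS and 5.09, 3.78 and 3.01 TPM after DT. Its log2 fold change of 1.27 was close in size to that of *Steap4* and likewise did not pass the threshold (adjusted p = 0.240 from limma), while edgeR's exact test called it. Of these 3 genes, 0 were called with limma and 2 were higher at an unadjusted p-value under 0.05, beside 5.91% of all genes. *Steap3* was at 15.8 and 21.7 TPM and *Steap2* at 6.43 and 6.15 TPM. Of 12 genes of iron uptake, storage and export, 1 was called higher and 0 lower with limma. This was *Hmox1*, the inducible heme oxygenase, which rose from 11.6 ± 2.45 to 24.7 ± 2.04 TPM (SD, n = 3), by 1.08 on the log2 scale with an SE of 0.18 (limma, adjusted p = 0.0379). The call was lost in 9 of 18 alternatives. Without PBS replicate 2, PBS replicate 3 or any single DT library the adjusted p-value from limma was 0.0710 to 0.206.

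The ferritin chains *Fth1* (719 and 849 TPM) and *Ftl1* (325 and 357 TPM) were the most abundant of the iron genes. *Slc40a1*, the iron exporter ferroportin, was at 21.5 ± 3.40 TPM after PBS and 15.6 ± 0.49 TPM after DT (SD, n = 3), and was called lower by DESeq2 but not by limma (adjusted p = 0.189).

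Of the sphingosine 1-phosphate receptors, *S1pr1* was by far the most abundant, with 1887 ± 162 TPM after PBS and 1721 ± 104 TPM after DT (SD, n = 3). The log2 fold change of *S1pr1* was -0.14 (adjusted p = 0.637 from limma), beside 0.56 for *S1pr3*. *S1pr2* was at 4.77 and 6.62 TPM, and *S1pr4* and *S1pr5* were at or under 2.06 TPM on average. Of the 4 other receptors, 0 were called by limma, edgeR or DESeq2, and 1 had an unadjusted p-value under 0.05. The 10 genes of sphingosine 1-phosphate synthesis, breakdown and export were led by *Plpp3*, listed under its older symbol *Ppap2b* (3822 and 3671 TPM), and *Asah1* (218 and 212 TPM), and 0 were called with limma or edgeR. At an unadjusted p-value under 0.05, 1 of these 10 was higher and 2 were lower, beside 5.91% and 4.51% of all genes, and DESeq2 called the phosphatase *Sgpp2* lower.

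In asparagine metabolism, *Asrgl1*, another asparaginase, had the highest level, with 595 ± 10.01 TPM after PBS and 558 ± 9.18 TPM after DT (SD, n = 3), and *Got1* at 36.1 and 39.5 TPM. *Asns*, the synthetase of asparagine, was at 7.15 ± 3.74 and 5.94 ± 0.62 TPM (SD, n = 3). Of the 5 genes, 0 were called by limma, edgeR or DESeq2, and 0 had an unadjusted p-value under 0.05.

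Of 9 other small heat shock genes, 5 passed the filter, and of these 1 was called higher and 0 lower with limma. *Hspb6* was at 17.3, 15.7 and 12.7 TPM after PBS and 30.9, 30.8 and 30.6 TPM after DT, so the DT libraries were nearly equal and all above the PBS libraries. It rose by 0.998 on the log2 scale with an SE of 0.14 (limma, adjusted p = 0.0223), and the call was lost in 6 of 18 alternatives. Without PBS replicate 2 or any single DT library the adjusted p-value from limma was 0.0723 to 0.113. *Cryab* (113 and 128 TPM) and *Hspb8* (111 and 114 TPM) were the most abundant small heat shock genes, both above *Hspb1*, with log2 fold changes of 0.18 and 0.02. Of the 7 kinases, partners and regulators of *Hspb1*, those with the highest level after PBS were *Mapkapk5* (73.1 and 71.7 TPM) and *Bag3* (55.6 and 59.4 TPM). Of the 7, 0 were called by limma, edgeR or DESeq2, and 1 had an unadjusted p-value under 0.05, *Mapkapk2* (54.4 and 65.6 TPM), a share not far from the 10.4% of all genes. The heat shock factor *Hsf1* was at 31.6 and 30.4 TPM.

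For *Cd44*, the genes that make and break down hyaluronan and the gene of osteopontin, *Spp1*, were measured. The synthases *Has1*, *Has2* and *Has3* were at or under 3.42 TPM on average in both groups. The most abundant of these genes were *Hyal1* (50.5 and 55.7 TPM) and *Hyal2* (19.9 and 22.0 TPM), and *Spp1* was at 17.2 and 14.5 TPM. The linkers to the actin cortex, *Ezr* (672 and 665 TPM) and *Rdx* (301 and 310 TPM), led the cytoplasmic partners and proteases. In each of these 2 lists of 8 tested genes, 0 were called by limma, edgeR or DESeq2, and 1 had an unadjusted p-value under 0.05, beside 10.4% of all genes. Among 4 other hyaluronan receptors, *Lyve1* rose from 1.14 ± 0.38 to 11.8 ± 3.22 TPM (SD, n = 3). Its log2 fold change was 3.21 with an SE of 0.30 (limma, adjusted p = 0.00214). *Stab1* was at 8.47 and 11.6 TPM and *Hmmr* at 1.84 and 2.15 TPM. *Stab2* went the other way, with 0.987 and 0.418 TPM (log2 fold change -1.10, adjusted p = 0.393 from limma). At an unadjusted p-value under 0.05, 2 of the 4 were higher and 1 was lower, beside 5.91% and 4.51% of all genes.

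The genes whose pattern over the 6 libraries lay closest to each member were sought among all genes tested, by the root mean square distance of centred log2(CPM + 0.1) values. Closest to *Aspg* were *Gfap* at a distance of 0.20, *Cxcl5* at 0.25 and *C4a* at 0.28. *Osmr* at 0.12, *Met* at 0.14 and *Gfap* at 0.16 were closest to *Cd44*. For *Hspb1* the nearest were *Fam101b* at 0.03, *Klf2* at 0.05 and *Ptprb* at 0.07, the latter a phosphatase known from endothelial cells. The nearest to *S1pr3* were *Mb*, *Slc5a5* and *Ctxn1*, at 0.06 to 0.10, and to *Steap4* *BC051019*, *Aldh1b1* and *Cacng5*, at 0.15 to 0.16. For *Lcn2* they were *Tmem254c* at 0.65, *Mgl2* at 0.82 and *Dlx4* at 0.88. The distance is not scaled by a gene's own spread, so it runs larger for genes as variable as *Lcn2*. Distances can therefore not be compared between members.

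Markers of other cell types were read in the same libraries, since several of the 6 genes are not limited to astrocytes. In bulk RNA, fewer cells of a type and less RNA per cell cannot be told apart. The 10 endothelial markers, among them *Cldn5*, summed to 1037, 1122 and 1508 TPM after PBS and 930, 946 and 1104 TPM after DT. All 10 had a log2 fold change below 0, with a median of -0.38, and 0 were called with limma. Of them, 4 were lower at an unadjusted p-value under 0.05, beside 4.51% of all genes. DESeq2 and edgeR's exact test called *Cldn5*. PBS replicate 3 was the highest library both for these markers and for *Hspb1*, and DT replicates 1 and 2 were the lowest for both. The part of endothelial RNA in the values of *Hspb1* was not tested.

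**Figure D3:**
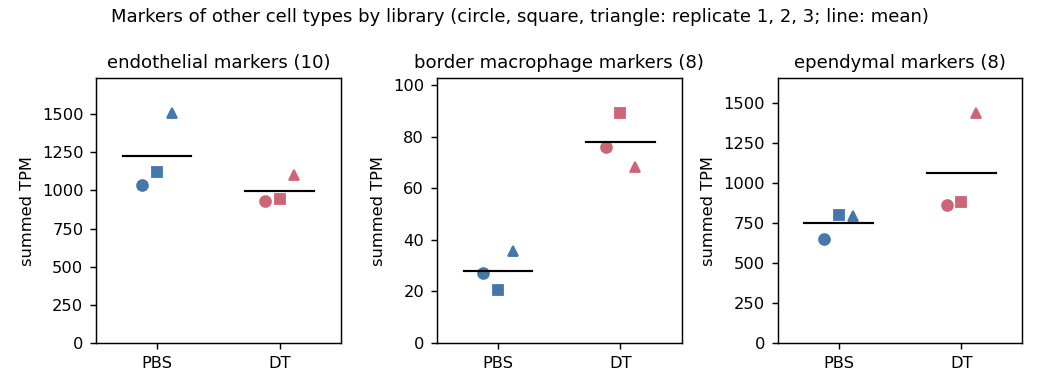
Summed TPM (y axis, from 0) of 10 endothelial, 8 border macrophage and 8 ependymal markers in the 3 PBS and 3 DT libraries (x axis), with the marker shape giving the replicate number and the line the mean. The endothelial sum was highest in PBS replicate 3 (1508). The border macrophage and the ependymal sum were each higher in every DT library than in any PBS library. The ependymal sum was highest in DT replicate 3 (1439).

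Myeloid markers moved with the treatment in both directions. The 10 microglia markers, *Siglech* among them, summed to 215 to 254 TPM after PBS and 130 to 144 TPM after DT. With limma 7 of the 10 were called lower, beside 0.159% of all genes. All 10 had a log2 fold change below 0, with a median of -1.48. A single marker held up to 105 TPM of these sums, while *Siglech* went from a mean of 2.04 TPM to 0 in each DT library. The 8 border macrophage markers, *Lyve1* and *Mrc1* among them, summed to 20.4 to 35.8 TPM after PBS and 68.4 to 89.3 TPM after DT. Of the 7 tested, 3 were called higher with limma, beside 0.555% of all genes. *Cd44*, which macrophages also express, gained 18.5 TPM, and the part of macrophage RNA in this gain, and in that of *Aspg* and *Steap4*, was not tested. Of 9 neutrophil markers in the tables, 7 were at 0 in all 6 libraries, and the 9 together had 4 reads over all libraries. The cell type that the reads of *Lcn2* came from was not tested.

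The pericyte and smooth muscle markers, listed because *S1pr3* is used in vessel walls, summed to 906 to 1390 TPM after PBS and 1062 to 1487 TPM after DT, overlapping between the groups. PBS replicate 2 was the lowest library for them and for *S1pr3*. Ependymal markers summed to 649 to 801 TPM after PBS and 861 to 1439 TPM after DT, without overlap. DT replicate 3 was the highest library for them and for *Lcn2*. The PBS libraries did not match in this way. Their ependymal sum was highest in replicate 2 (801 TPM), where *Lcn2* was at 0, and was 793 TPM in replicate 3, where *Lcn2* was at 5.90 TPM. All 8 ependymal markers had a log2 fold change above 0. Of them, 4 had an unadjusted p-value under 0.05, beside 5.91% of all genes higher at that level. With limma 0 of the 8 were called, and DESeq2 called *Foxj1*. The 10 choroid plexus markers summed to 396, 2045 and 109 TPM after PBS and 3455, 2353 and 1270 TPM after DT, overlapping between the groups, and were lowest in the PBS library with the highest *Lcn2*. All 10 had a log2 fold change above 0 and 8 an unadjusted p-value under 0.05, beside 5.91% of all genes higher at that level. With limma 0 were called, while *Cldn2* was called by DESeq2 and edgeR's exact test. Their part in these values was not tested.

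**Figure D4:**
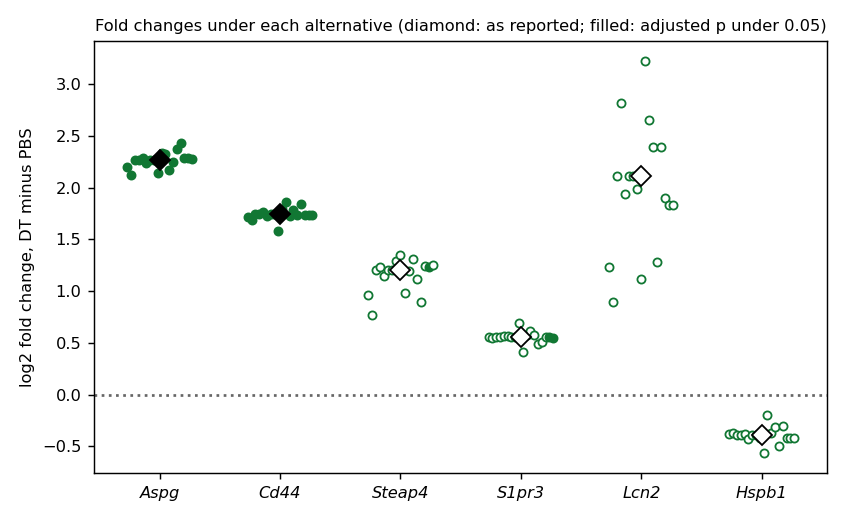
Log2 fold change (y axis, DT minus PBS) of the 6 genes (x axis) as reported (diamond) and under each of up to 18 alternatives (circles), filled where the adjusted p-value was under 0.05. *Aspg* stayed between 2.12 and 2.43 and *Cd44* between 1.58 and 1.86, always filled, while *Lcn2* spread from 0.90 to 3.22 and was never filled.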

How the data were processed

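Astrocyte RNA of 3 PBS and 3 DT libraries was sequenced after depletion of CD11b+ cells and selection of ACSA-2+ cells with magnetic beads. The authors trimmed reads with Trim Galore 0.5.0, mapped them to mm10 with HISAT2 2.1.0 using strand information, removed ribosomal DNA reads with BEDTools 2.25.0, quantified genes with StringTie 1.3.5 and used edgeR 3.24.3. The authors deposited TPM per gene and library. The deposited signal is CPM of library sizes scaled by TMM factors (0.974 to 1.02), so a column sums to 980428 to 1026170, where plain CPM had been assumed. Whole reads were recovered from its steps for 100% of values (within rounding of the third decimal), and count tests on them, which called 87 (edgeR quasi-likelihood), 191 (edgeR exact) and 227 (DESeq2) genes higher, were alternatives. The deposited p-values, q-values and fold changes of the authors' own comparison were not used.

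Tests used limma 3.58.1 with a variance trend in R 4.3.3, without a block. The limma fit alone was run on simulated counts, with a common setting of the spread between libraries for all genes. Such counts do not cover genes as variable as *Lcn2*. Alternatives were pseudocounts of 0.5 and 1, no filter or a minimum of 2 CPM, TPM in place of CPM, quantile normalization, a fit lacking the variance trend, the replicate block, each library left out, edgeR 4.0.16, DESeq2 1.42.0 and, added after seeing the data, neither library numbered 3. Permutation tests used scipy 1.17.1. The text names the 6 genes, the other signature genes, called partner genes with the 2 of highest mean TPM after PBS in each list, and further genes of those lists chosen after their values were seen, and the 3 genes nearest to each member. Members and lists were chosen with earlier results of these data known. P-values measure the spread between these pools.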

Additional observations from a re-analysis of the deposited data

How the results depend on the processing

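The calls of *Aspg* and *Cd44*, and the lack of a call for *Lcn2* and *Hspb1*, held with the same sign in the alternatives run, 18 for each but *Lcn2* with 17. In fits without 1 library, the log2 fold change lay between 2.14 and 2.38 for *Aspg*, 1.58 and 1.86 for *Cd44*, 0.99 and 1.35 for *Steap4*, 0.41 and 0.69 for *S1pr3*, 1.12 and 3.22 for *Lcn2*, and -0.57 and -0.19 for *Hspb1*. With edgeR's exact test, *Steap4* (1.24) and *S1pr3* (0.55) passed the threshold, making 4 genes called, and with DESeq2 *S1pr3* (0.55) did. The cause was not tested. *Lcn2* and *Steap4* had no value with a mean CPM of at least 2, which they did not reach.

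Over all genes, 84 were higher and 24 lower. Without the variance trend 35 and 11 were called, with neither library numbered 3 45 and 13, with edgeR's exact test 191 and 72, with DESeq2 227 and 98, and without 1 library 39 to 72 and 9 to 20 (39 without DT replicate 1, 40 and 10 without DT replicate 2, and 11, 9 and 10 lower without PBS replicates 1, 2 and 3). Between members, 8 to 12 of 15 pairs did not overlap when 1 library was left out, the 12 without PBS replicate 3. Leaving out a library cannot lower this count, so its lower end is no sign of stability.

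Same-numbered libraries deviated together with correlations of 0.115, 0.0105 and 0.118, beside -0.124 to 0.0115 between libraries of different numbers. Replicates 1 and 3 correlated best with their own number, but replicate 2 did not. The numbers were not taken as pairs. With the replicate block, *Aspg* and *Cd44* were again called (adjusted p = 0.00383 and 0.00407), 79 genes were higher and 30 lower, and no call among the 6 genes changed, while *Vim* passed the threshold and *Hmox1* did not. Few reads stood behind *Steap4*, 15 to 63 per library, and *Lcn2*, 0 to 121, and those of *Lcn2* did not follow depth, with 0 in the deepest library and 38 in the shallowest.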

Other observations

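Markers of the remaining cell types had lower or overlapping sums. The 6 oligodendrocyte precursor markers summed to 267 to 305 TPM after PBS and 231 to 254 TPM after DT, with 0 called by limma. Of them, 3 were lower at an unadjusted p-value under 0.05, beside 4.51% of all genes. *Gpr17* and *Pdgfra* were called lower by edgeR's exact test and DESeq2. The 8 oligodendrocyte markers summed to 463 to 573 and 407 to 503 TPM, the 9 neuron markers to 284 to 352 and 242 to 428 TPM, and the 9 meningeal fibroblast markers to 132 to 187 and 130 to 175 TPM. Lymphocyte markers did not reach the filter and summed to at most 1.38 TPM in any library.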
